A study of Mus musculus with 12 samples.

Results

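The 10 genes described here encode subunits of the large corepressor complexes that carry the histone deacetylases Hdac1 and Hdac2. They were taken by name from a table of 21638 genes: the Sin3 scaffolds Sin3a and Sin3b, the NuRD subunits Mta1, Mta2, Mta3, Chd4, Mbd3 and Gatad2a, and the CoREST subunits Rcor1 and Kdm1a. All 10 passed the filter on low counts (a mean of at least 10 counts over all libraries), as did 12577 genes of the table. Between 64 and 3601 counts stood behind each subunit in each library.

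RNA was sequenced from cortical endothelial cells of adult mouse brain, sorted by FACS (CD31+, CD41-, CD45-), in 12 libraries of 4 genotypes with 3 libraries each. WT mice were compared with Hdac2lox/lox:Cdh5CreERT2 (Hdac2 ECKO), Ezh2lox/lox:Cdh5CreERT2 (Ezh2 ECKO) and Ctnnb1lox/lox:Cdh5CreERT2 (beta-catenin GOF, constitutive activation of beta-catenin). Cdh5CreERT2 is a tamoxifen-inducible recombinase driven by the VE-cadherin promoter, which is active in endothelium. The mutants received 5 tamoxifen doses of 75 mg/kg and brains were taken 2 months later. The labels do not state whether WT mice carried the Cre or received tamoxifen, which part of each gene the lox sites flank, or whether the libraries of a group came from separate mice. P-values therefore measure the spread between these libraries, which may be partly technical.

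Hdac1 and Hdac2 have little activity on their own and work inside such complexes, which remove acetyl groups from histone tails and so lower transcription of nearby genes. Sin3a and Sin3b are alternative scaffolds. NuRD couples deacetylation to the nucleosome-remodelling ATPase Chd4, and CoREST couples it to the lysine demethylase Kdm1a, also known as LSD1. DNA-binding factors recruit the complexes to their targets.

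Library totals ran from 24781070 to 36109975 counts. Levels are given as CPM, the count relative to the library's total after trimmed-mean (TMM) scaling, and a level compared between genes is given as CPM per kilobase of gene length. Markers of brain endothelium summed to between 5463 and 7535 CPM in every library, with none of 9 markers at 0 in all libraries of a group. Pericyte and smooth muscle markers summed to 66.9 to 123 CPM in WT, 128 to 314 CPM in Hdac2 ECKO, 56.6 to 72.8 CPM in libraries labelled Ezh2 ECKO and 121 to 379 CPM in beta-catenin GOF. The summed level of Hba-a1 and Hbb-bs, the haemoglobin genes of red blood cells, was 19603 to 33713 CPM in WT, 211 to 11722 CPM in Hdac2 ECKO, 1455 to 3599 CPM in libraries labelled Ezh2 ECKO and 271 to 20833 CPM in beta-catenin GOF.

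The targeted genes were read first. Hdac2 stood at 163, 122 and 104 CPM in the WT libraries and at 82.2, 95.0 and 112 CPM in Hdac2 ECKO, so that the groups overlapped (log2 fold change -0.42, SE 0.24, edgeR adjusted p = 0.225). The beta-catenin GOF libraries, in which Hdac2 is not the targeted gene, held 88.6, 92.3 and 108 CPM of it. On the log2 scale they differed by -0.43 from WT and by -0.0053 from Hdac2 ECKO. Libraries labelled Ezh2 ECKO lay nearer WT, at -0.098. The Hdac2 level therefore did not tell Hdac2 ECKO from beta-catenin GOF. Ezh2 stood at 8.88, 2.69 and 8.69 CPM in WT libraries and at 9.85, 5.19 and 11.7 CPM in libraries labelled Ezh2 ECKO. The second WT library held the lowest Ezh2 level of the 6, and the libraries labelled Ezh2 ECKO were not lower than WT (log2 fold change 0.40, SE 0.46, edgeR adjusted p = 0.615). With sample quality weights Ezh2 was called higher there (log2 fold change 1.28, adjusted p = 0.0428 by limma), in a fit that called 3743 of 12577 genes. Ctnnb1, which encodes beta-catenin, was at 546, 608 and 809 CPM in WT libraries and at 696, 576 and 478 CPM in the GOF libraries (log2 fold change -0.17, SE 0.29, edgeR adjusted p = 0.962). Counts over a whole gene do not check a deletion of a few exons, nor an activating allele.

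Mbd3 and the pairs Sin3a and Sin3b, and Rcor1 and Kdm1a, are the subunits the results below turn on, so the 150 bases upstream of their RefSeq starts (GRCm38.p6) are shown, 5′ to 3′ on the gene's strand. Capitals mark the GC box GGGCGG and the CCAAT box CCAAT, on either strand. Mbd3 lies at chr10:80399532-80399681 on the minus strand, Sin3a at chr9:57071890-57072039 and Sin3b at chr8:72723120-72723269 on the plus strand, Rcor1 at chr12:111039217-111039366 on the plus strand and Kdm1a at chr4:136602724-136602873 on the minus strand.
Mbd3: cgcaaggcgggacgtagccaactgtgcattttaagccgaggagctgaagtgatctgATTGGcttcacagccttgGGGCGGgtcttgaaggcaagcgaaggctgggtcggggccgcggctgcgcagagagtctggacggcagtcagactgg
Sin3a: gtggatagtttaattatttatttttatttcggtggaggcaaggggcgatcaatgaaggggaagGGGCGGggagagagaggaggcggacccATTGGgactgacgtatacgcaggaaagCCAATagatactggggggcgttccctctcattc
Sin3b: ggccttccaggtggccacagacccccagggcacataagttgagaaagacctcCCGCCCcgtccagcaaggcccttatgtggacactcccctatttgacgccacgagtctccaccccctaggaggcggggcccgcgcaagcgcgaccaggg
Rcor1: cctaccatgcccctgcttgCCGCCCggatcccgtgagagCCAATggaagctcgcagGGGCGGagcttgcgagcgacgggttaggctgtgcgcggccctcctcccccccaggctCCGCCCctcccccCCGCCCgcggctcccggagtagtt
Kdm1a: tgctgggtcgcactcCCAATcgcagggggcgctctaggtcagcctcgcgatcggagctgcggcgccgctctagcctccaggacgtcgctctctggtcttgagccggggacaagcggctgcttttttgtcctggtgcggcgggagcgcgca
Promoters were matched for 9 of the 10 subunits, Mta3 being the other. The GC box was present in 8 of 9, against 28.6% of 32851 promoter windows of the same length, and the CCAAT box in 5 of 9, against 24.5%. The ETS core CCGGAA was found in 1 of 9 (Mta2), against 9.2%. The E-box CACGTG, the TATA box TATAAA, the NRF1 site and the CRE TGACGTCA were found in 0 of 9, against 4.3%, 7.6%, 0.6% and 1.4%. Of the promoters shown, Kdm1a had no GC box in this window and Sin3b no CCAAT box. A match describes letters in the window and not binding.

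Mbd3 had the largest fold change of the 10 against WT in each mutant as counted. It encodes a methyl-CpG-binding-domain protein that itself binds methylated DNA poorly and holds the NuRD complex together (ENSMUSG00000035478.14, chr10:80392539-80399550, minus strand, GRCm38). Its level was 32.5, 28.5 and 19.5 CPM in the WT libraries, 8.86, 13.1 and 7.28 CPM in Hdac2 ECKO, 4.15, 11.1 and 4.67 CPM in libraries labelled Ezh2 ECKO, with 9.01, 17.3 and 16.2 CPM in beta-catenin GOF. All 9 mutant libraries lay below the lowest WT library. Mbd3 was the 1 subunit of 10 with that pattern, which 1.91% of all tested genes showed, and 0 of 10 were higher in all 9 mutant libraries, against 1.99%. These comparisons share the WT libraries, so they are not independent of each other.

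Mbd3 fell in Hdac2 ECKO, from 26.8 ± 6.64 to 9.75 ± 3.02 CPM (SD, n = 3 each). The log2 fold change was -1.46 (SE 0.41, edgeR adjusted p = 0.0417). Libraries labelled Ezh2 ECKO also held less than WT, with a fall to 6.64 ± 3.87 CPM, a log2 difference of -2.02 (SE 0.42, edgeR adjusted p = 0.0448). In beta-catenin GOF it was 14.2 ± 4.52 CPM and did not pass (log2 fold change -0.92, SE 0.40, edgeR adjusted p = 0.794). No contrast between mutants passed for Mbd3. In bulk RNA of sorted cells, fewer cells with the transcript and less transcript per cell cannot be told apart.

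Both calls for Mbd3 were close to the threshold. With 1 library left out at a time, the adjusted p in Hdac2 ECKO ranged from 0.023 to 0.171 and passed in 2 of 6 fits, without WT 3 and without Hdac2 ECKO 2. For the libraries labelled Ezh2 ECKO it ranged from 0.00917 to 0.164 and likewise passed in 2 of 6 fits, without WT 3 and without the second library of that group. Each call was therefore lost without WT 1, without WT 2, and without mutant library 1 or 3. The log2 fold change stayed negative in all 12 fits, between -1.30 and -1.79 in Hdac2 ECKO and between -1.79 and -2.60 in libraries labelled Ezh2 ECKO.

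Gene length moved with these differences. Mbd3 is the shortest of the 10 (1987 bases, longer than 14.0% of tested genes) and has the highest GC content of them (62.9%). The median log2 fold change in Hdac2 ECKO was -0.52 over the 2518 shortest tested genes and 0.66 over the 2516 longest. For the libraries labelled Ezh2 ECKO the same medians were -0.21 and 0.43. With the length trend removed, Mbd3 was at -0.87 (SE 0.32, edgeR adjusted p = 0.11) in Hdac2 ECKO, no longer past the threshold and smaller than Sin3b (-1.11) and Mta3 (-0.94) there, neither of which passed. It was at -1.72 (SE 0.33, edgeR adjusted p = 0.041) in libraries labelled Ezh2 ECKO.

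**Figure D1:**
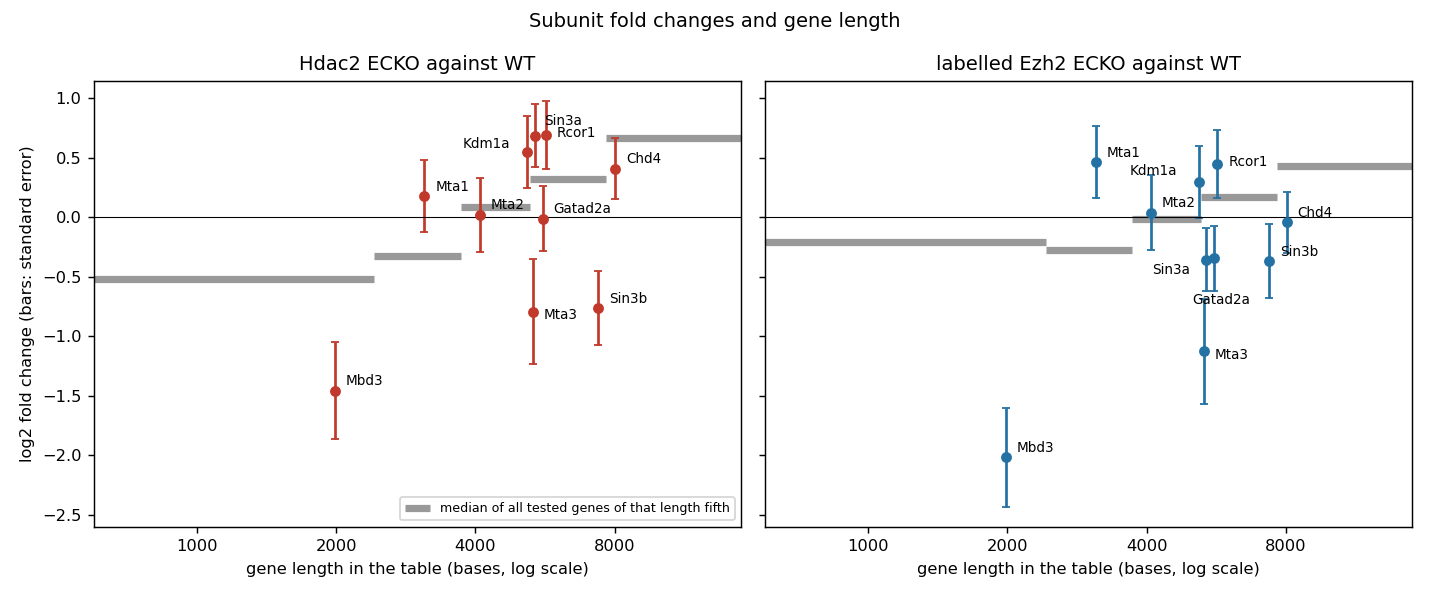
Log2 fold change against WT (y axis, bars are the standard error) against gene length in bases (log x axis) for the 10 subunits, in Hdac2 ECKO and in libraries labelled Ezh2 ECKO, with grey lines for the median of all tested genes in 5 classes of length. The grey medians rise from the shortest to the longest class in Hdac2 ECKO, and Mbd3 lies below its own class in both panels.

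Red blood cell markers were also below WT in every library of Hdac2 ECKO and of the Ezh2 ECKO label, where Mbd3 was called. In beta-catenin GOF, where Mbd3 was not called, the 3 libraries held 20833, 271 and 15847 CPM of haemoglobin transcripts. Their Mbd3 levels were 9.01, 17.3 and 16.2 CPM in the same order. The part of red blood cell RNA in the differences was not tested.

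**Figure D2:**
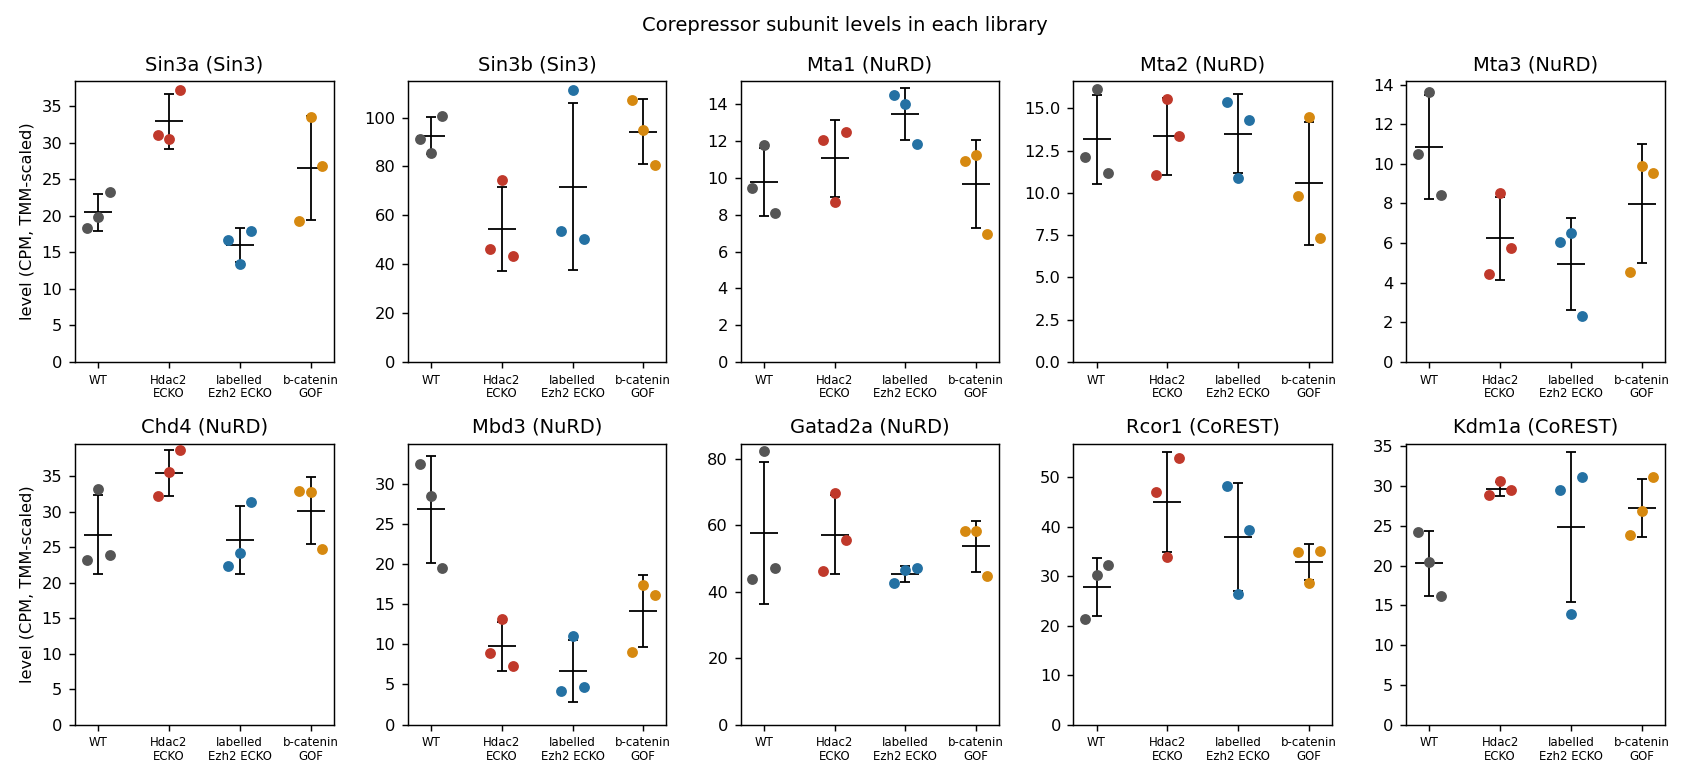
Level of each subunit in each library (CPM, TMM-scaled, y axis from 0) by genotype, with points for the 3 libraries of a group and lines for the mean and SD. All 9 mutant libraries lie below the WT libraries for Mbd3. In every other panel the beta-catenin GOF libraries overlap WT, but only Mta2, Chd4 and Gatad2a overlap it in all mutants.

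Sin3a and Sin3b, the alternative scaffolds of the Sin3 complex, stood on opposite sides of WT in Hdac2 ECKO. Sin3a (ENSMUSG00000042557.14, chr9:57072040-57128366) was at 18.3, 19.8 and 23.3 CPM in the WT libraries, 31.0, 30.5 and 37.3 CPM in Hdac2 ECKO, 16.7, 13.4 and 17.9 CPM in libraries labelled Ezh2 ECKO, with 19.3, 33.6 and 26.8 CPM in beta-catenin GOF. All Hdac2 ECKO libraries were above every WT library. All libraries labelled Ezh2 ECKO were below every WT library, the last by little (17.9 against 18.3 CPM in the first WT library). That combination was shown by 10 of 12577 tested genes (0.0795%), and was noticed after the values were seen. Genes with the reverse combination were not counted. Neither difference from WT passed the threshold, at log2 differences of 0.69 (SE 0.27, adjusted p by edgeR 0.094) and -0.36 (SE 0.27, adjusted p by edgeR 0.42). With the length trend removed they were 0.52 and -0.43 (adjusted p by edgeR 0.181 and 0.29).

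Set directly against each other, Hdac2 ECKO and libraries labelled Ezh2 ECKO differed in Sin3a by 1.04 on the log2 scale (SE 0.27), the largest difference of any subunit between these groups. It had an edgeR adjusted p of 0.293 and a DESeq2 adjusted p of 0.0376, where edgeR called 0.0239% of tested genes and DESeq2 98 of 12577. Sin3a overlaps 2 long noncoding genes on the other strand, 2700012I20Rik and Man2c1os, and whether counting used strand is not given in the sources used here.

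Sin3b (ENSMUSG00000031622.16, chr8:72723285-72758201) was at 91.4, 85.7 and 101 CPM in WT libraries and at 46.1, 74.3 and 43.3 CPM in Hdac2 ECKO. Every Hdac2 ECKO library was below every WT library, the second less far than the other two. The log2 fold change was -0.76 (SE 0.31, edgeR adjusted p = 0.107). It passed in 1 of 6 fits with 1 library left out, that without Hdac2 ECKO 2 (adjusted p = 0.0353 by edgeR), which leaves out the Hdac2 ECKO value nearest WT, and had an adjusted p of 0.173 to 0.301 in the others. The libraries labelled Ezh2 ECKO held 53.7, 111 and 50.3 CPM, the second of them above WT and the others below it. Their log2 fold change was -0.37 (SE 0.31, edgeR adjusted p = 0.48). It passed in 1 of 6 fits with 1 library left out, that without the high second library (adjusted p = 0.0414 by edgeR), in which 2329 genes were called in place of 129, and had an adjusted p of 0.544 to 0.797 in the others. In beta-catenin GOF Sin3b was at 107, 95.0 and 80.8 CPM, over the WT range.

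As a share of the summed per-kilobase level of both scaffolds, Sin3a made up 21.5%, 24.0% and 24.0% in WT and 47.9%, 35.9% and 54.0% in Hdac2 ECKO. The groups did not overlap. Libraries labelled Ezh2 ECKO had shares of 29.8%, 14.1% and 32.7% and beta-catenin GOF shares of 19.8%, 32.5% and 31.2%, both overlapping WT. Shares were computed after the levels had been seen, for 8 sets of alternative subunits against WT in each mutant. Of these 24 comparisons 11 did not overlap, but the smallest two-sided exact permutation p of 3 against 3 is 0.1, and the smallest adjusted p over the 24 was 0.218, so none passed. Shares were not computed for other gene families. For levels, 37.8% of tested genes did not overlap WT in Hdac2 ECKO, 22% with the Ezh2 ECKO label and 12.7% in beta-catenin GOF.

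**Figure D3:**
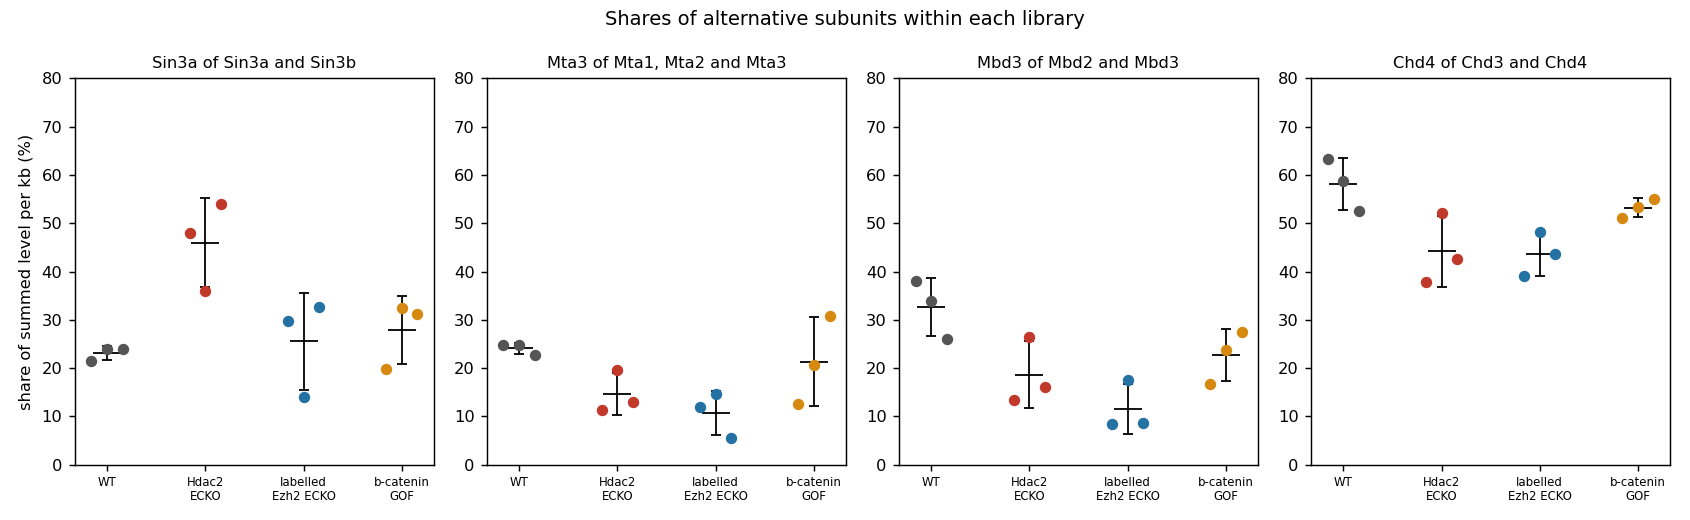
Share of one subunit in the summed per-kilobase level of its alternatives (%, y axis) in each library by genotype, with points for libraries and lines for the mean and SD. The Sin3a share was 35.9% or more in every Hdac2 ECKO library and 24.0% or less in every WT library.

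The Mta proteins are alternative NuRD subunits that bind Hdac1 and Hdac2 directly. Mta3 (ENSMUSG00000055817.18, chr17:83706163-83821516) was at 10.5, 13.6 and 8.40 CPM in the WT libraries, 4.43, 8.52 and 5.76 CPM in Hdac2 ECKO, 6.03, 6.53 and 2.30 CPM in libraries labelled Ezh2 ECKO, with 4.54, 9.87 and 9.55 CPM in beta-catenin GOF. The libraries labelled Ezh2 ECKO lay below WT, while the other 2 mutants overlapped it. Their difference did not pass (log2 fold change -1.13, SE 0.44, edgeR adjusted p = 0.14).

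Mta1 (ENSMUSG00000021144.14, chr12:113098278-113137206) was at 9.44, 11.8 and 8.12 CPM in WT libraries and at 14.5, 14.0 and 11.9 CPM in libraries labelled Ezh2 ECKO, which lay just above WT (log2 fold change 0.46, SE 0.30, edgeR adjusted p = 0.357). In Hdac2 ECKO and beta-catenin GOF it ranged from 6.94 to 12.5 CPM and overlapped WT. Mta2 (ENSMUSG00000071646.9, chr19:8941875-8952303) overlapped WT in every mutant, from 7.32 to 16.1 CPM over all 12 libraries. Its log2 fold changes were 0.02 in Hdac2 ECKO, 0.04 in libraries labelled Ezh2 ECKO and, for beta-catenin GOF, -0.32.

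Within the Mta family, the Mta3 share of the summed per-kilobase level was 24.7%, 24.9% and 22.8% in WT. It was 11.2%, 19.5% and 12.9% in Hdac2 ECKO and 11.8%, 14.6% and 5.58% in libraries labelled Ezh2 ECKO, in both cases below WT. In beta-catenin GOF it spread from 12.6% to 30.9%.

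Chd4, the NuRD ATPase (ENSMUSG00000063870.12, chr6:125095981-125130591), and Gatad2a, which links the remodelling and deacetylase parts of NuRD (ENSMUSG00000036180.15, chr8:69907076-69996384, minus strand), had the smallest spread of the 10 over the 12 libraries. Chd4 was 26.8 ± 5.60 CPM in WT, 35.5 ± 3.23 CPM in Hdac2 ECKO, 26.0 ± 4.82 CPM in libraries labelled Ezh2 ECKO and 30.1 ± 4.73 CPM in beta-catenin GOF (SD, n = 3 each). The Hdac2 ECKO values of 32.2, 35.6 and 38.7 CPM overlapped the second WT library at 33.2 CPM. Gatad2a was 57.7 ± 21.4 CPM in WT, where 1 library (82.3 CPM) stood above the other two, and 57.2 ± 11.9, 45.4 ± 2.44 and 53.8 ± 7.70 CPM in the mutants in the same order. For these 2 genes every log2 fold change against WT was between -0.35 and 0.41, and none passed.

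Rcor1, the CoREST scaffold (ENSMUSG00000037896.17, chr12:111039351-111115901), was at 21.2, 30.1 and 32.2 CPM in WT libraries and at 46.9, 33.9 and 53.9 CPM in Hdac2 ECKO. Each Hdac2 ECKO library was above every WT library, the second by little. Its log2 difference was 0.69 (SE 0.29, edgeR adjusted p = 0.112), which missed the threshold. With the length trend removed it was 0.48 (edgeR adjusted p = 0.24). Libraries labelled Ezh2 ECKO held 48.2, 26.4 and 39.2 CPM and beta-catenin GOF 34.9, 28.5 and 35.0 CPM, both overlapping WT. Rcor1 overlaps Gm46379 and Gm48632, to which some of its reads could belong.

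Kdm1a, the demethylase bound by Rcor1 (ENSMUSG00000036940.15, chr4:136550540-136602723, minus strand), was at 24.3, 20.5 and 16.2 CPM in WT libraries and at 28.9, 30.6 and 29.5 CPM in Hdac2 ECKO. These groups did not overlap, with the closest spread of any subunit among the Hdac2 ECKO libraries. The log2 fold change was 0.55 (SE 0.30, edgeR adjusted p = 0.215), and 0.41 with the length trend removed (edgeR adjusted p = 0.352). The libraries labelled Ezh2 ECKO held 29.5, 14.0 and 31.1 CPM, the second below WT and the others above it. Kdm1a overlaps Luzp1 on the other strand, so part of its counts is uncertain without strand. It also overlaps the processed pseudogene Gm12987 on its own strand.

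Counted over the 10 subunits, 1 passed the threshold in Hdac2 ECKO (Mbd3, lower), where 9.2% of tested genes were called, 5.38% lower and 3.82% higher. In the libraries labelled Ezh2 ECKO 1 passed (Mbd3, lower), where 1.03% were called, 0.684% lower and 0.342% higher. In beta-catenin GOF 0 of 10 passed, as did 0% of tested genes by edgeR, with 763 genes (6.07%) at an unadjusted p under 0.05, Mbd3 the one subunit among them, and 38 genes called by DESeq2. In the contrasts between mutants 0 of 10 passed each time, against 0.0239% of tested genes for Hdac2 ECKO against libraries labelled Ezh2 ECKO, 0.0716% for beta-catenin GOF against Hdac2 ECKO and 0.0636% for beta-catenin GOF against libraries labelled Ezh2 ECKO. The counts over all genes changed with 1 library left out, for a reason that was not tested. The 1157 genes of Hdac2 ECKO became 0 without WT 1, WT 2 or Hdac2 ECKO 3, and 3 without Hdac2 ECKO 1. They became 1872 without WT 3 and 2216 without Hdac2 ECKO 2. The 129 genes of the Ezh2 ECKO label became 2 without WT 1 or WT 2, 4 and 7 without its first or its last library, 1143 without WT 3 and 2329 without its second library. At an unadjusted p under 0.05 by edgeR the contrasts between mutants, in the order above, held 1, 1 and 2 of 10 subunits. Over all tested genes the shares were 8.19%, 21.1% and 13.2%.

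Subunits whose libraries did not overlap WT were 3 higher (Sin3a, Rcor1 and Kdm1a) and 2 lower (Sin3b and Mbd3) in Hdac2 ECKO, where 19.5% and 18.2% of tested genes did so. In the libraries labelled Ezh2 ECKO they were 1 higher (Mta1) and 3 lower (Sin3a, Mta3 and Mbd3), against 11.1% and 10.9%. In beta-catenin GOF 1 was lower (Mbd3), against 5.87%. The median log2 fold change of the 10 was 0.10 in Hdac2 ECKO, -0.20 with the Ezh2 ECKO label and 0.01 in beta-catenin GOF, beside 0.10, 0.05 and 0.01 over all tested genes.

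**Figure D4:**
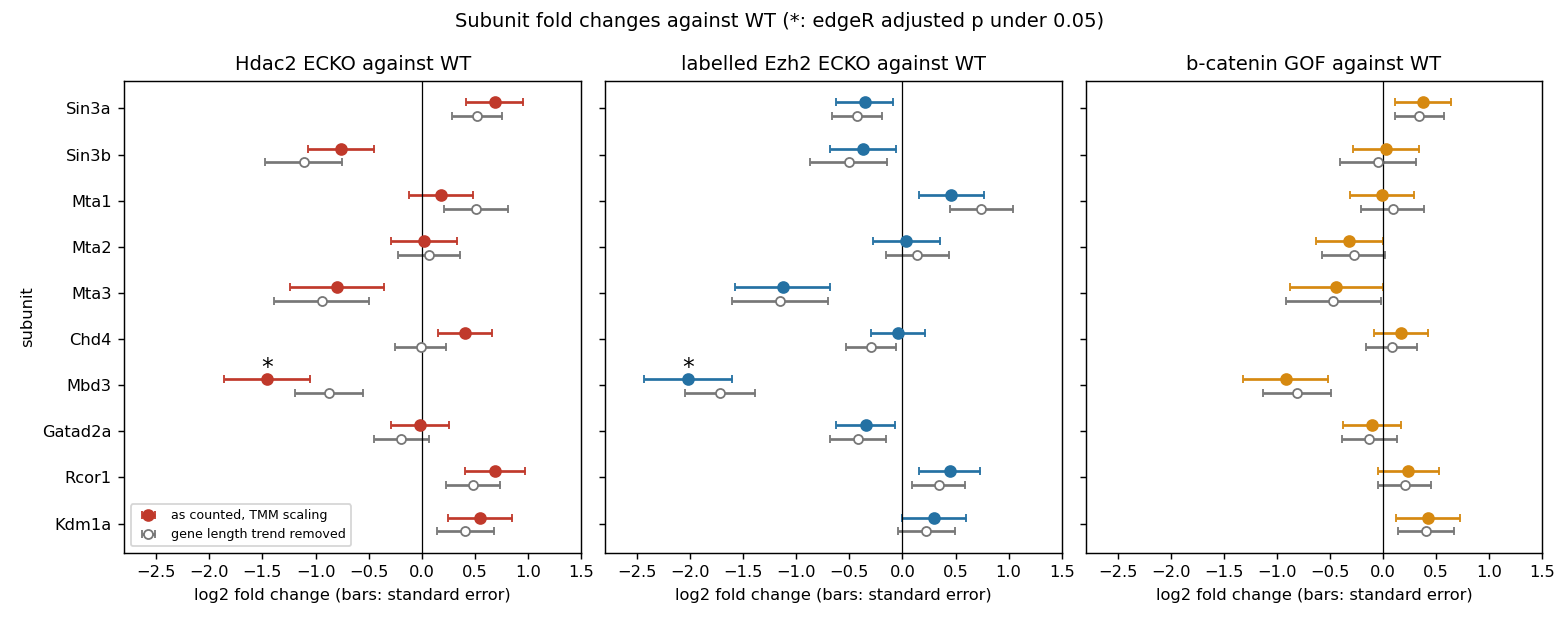
Log2 fold change of each subunit against WT in the 3 mutants (x axis, bars are the standard error), as counted with TMM scaling (filled) and with the gene length trend removed (open), with an asterisk over a filled point where its edgeR adjusted p was under 0.05. Among filled points Mbd3 carries the only asterisks, at -1.46 in Hdac2 ECKO and -2.02 in libraries labelled Ezh2 ECKO, and open points carry none, although Mbd3 with the Ezh2 ECKO label also passed there (-1.72, adjusted p = 0.041 by edgeR).

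Per kilobase, Mbd3 (13.5 ± 3.34), Sin3b (12.6 ± 1.04) and Gatad2a (10.3 ± 3.82 CPM per kb) led in WT and overlapped each other. The other 7 followed below them without overlap, from Rcor1 at 4.90 ± 1.03 down to Mta1 at 3.15 ± 0.60 CPM per kb, each overlapping its neighbour in that order, and Mta3 was apart from Mta1 at 2.04 ± 0.49 CPM per kb. In Hdac2 ECKO Mbd3 had rank 6 at 4.91 ± 1.52 CPM per kb, and in libraries labelled Ezh2 ECKO rank 6 at 3.34 ± 1.95 CPM per kb, overlapping both neighbours in each group. In beta-catenin GOF it had rank 3 at 7.14 ± 2.27 CPM per kb. Mta3 was last in all 4 groups.

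Over the 12 libraries Mbd3 varied most of the 10 (SD 0.93 of log2 CPM) and Chd4 least (0.28). Likeness was measured as the root mean square difference of centred log2 CPM. By this measure Chd4 and Gatad2a were nearest to each other (0.21), as were Rcor1 and Kdm1a (0.36) and Mbd3 and Mta3 (0.50). Mta1 was nearest to Mta2 (0.31), Sin3a to Chd4 (0.35), and Sin3b (0.51) and Mta2 (0.31) to Gatad2a. Outside the lists, Prxl2c (0.09), Rab14 (0.13) and the row named 2-Sep (0.13), a spreadsheet's date form of a gene symbol, lay nearest to the mean profile of the 10 subunits.

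Hdac1, the deacetylase shared by the 3 complexes, was at 115, 89.2 and 56.6 CPM in the WT libraries, 30.8, 38.5 and 27.5 CPM in Hdac2 ECKO, 35.6, 38.0 and 31.5 CPM in libraries labelled Ezh2 ECKO, with 40.9, 61.3 and 39.6 CPM in beta-catenin GOF. It was called lower in Hdac2 ECKO (log2 difference -1.43, SE 0.29, edgeR adjusted p = 0.0323) and in libraries labelled Ezh2 ECKO (log2 difference -1.31, SE 0.29, edgeR adjusted p = 0.0478). Each call held in 2 of the 6 fits with 1 library left out, the same libraries as for Mbd3, with adjusted p from 0.0129 to 0.155 and from 0.0144 to 0.196. With the Ezh2 ECKO label the call was also lost with median-ratio scaling (adjusted p = 0.0506 by edgeR), library size alone (0.0555), only 2 groups fitted (0.112) and the length trend removed (0.0505), at log2 differences of -1.09 to -1.33. Hdac1 has a processed pseudogene, Gm10093, that is 99.4% identical to it over 1435 matching bases, which leaves its count uncertain if reads fit both. None of the 10 subunits had a copy at least 90% identical (0 of 10).

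The wider set held complex members, recruiting factors and the related MiDAC and NCoR/SMRT complexes. Of its 73 listed symbols 59 were tested, the subunits and Hdac1 included. In Hdac2 ECKO 4 rose and 9 fell, where 3.82% and 5.38% of all tested genes did. In the libraries labelled Ezh2 ECKO 0 rose and 2 fell, namely Mbd3 and Hdac1, against 0.342% and 0.684%. In beta-catenin GOF 0 passed. The median log2 fold change of the 59 was 0.02, -0.10 and -0.09 in the same order, beside 0.10, 0.05 and 0.01 over all tested genes.

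Paralogues of 2 NuRD subunits rose in Hdac2 ECKO. Chd3, an alternative ATPase to Chd4, went from 20.5 ± 5.57 to 48.4 ± 12.2 CPM (SD, n = 3 each; log2 fold change 1.24, edgeR adjusted p = 0.0355). Gatad2b, the paralogue of Gatad2a, went from 22.9 ± 5.93 to 49.7 ± 12.0 CPM (log2 fold change 1.11, edgeR adjusted p = 0.0388). Both are long genes, and with the length trend removed neither passed (edgeR adjusted p = 0.0736 and 0.161). Chd3 and Gatad2b were also higher in libraries labelled Ezh2 ECKO, where Gatad2b overlapped WT and neither passed. Their log2 fold changes there were 0.80 and 0.73 (edgeR adjusted p = 0.129 and 0.143). The Chd4 share of Chd3 and Chd4 was 63.3%, 58.7% and 52.5% in WT and 37.8%, 52.2% and 42.6% in Hdac2 ECKO. It was 39.1%, 48.1% and 43.6% in libraries labelled Ezh2 ECKO, also below WT.

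Dnttip1, Gps2 and Snai2 were among the other listed genes called in Hdac2 ECKO. Dnttip1, the scaffold of the MiDAC complex, fell from 38.7 ± 8.05 to 12.5 ± 5.99 CPM (log2 fold change -1.63, edgeR adjusted p = 0.0338). Gps2, a subunit of the Hdac3-containing NCoR/SMRT complex, fell from 78.5 ± 26.3 to 26.5 ± 15.8 CPM (log2 fold change -1.57, edgeR adjusted p = 0.0387). Snai2, a zinc-finger repressor that recruits corepressors, fell from 52.2 ± 24.5 to 19.8 ± 4.10 CPM (log2 fold change -1.40, edgeR adjusted p = 0.0406). With the length trend removed Dnttip1 passed (edgeR adjusted p = 0.0407), while Gps2 (0.0833) and Snai2 (0.231) did not. With 1 library left out, the calls of Dnttip1, Gps2, Snai2, Chd3 and Gatad2b each held in 2 of 6 fits, without WT 3 and without Hdac2 ECKO 2. In the others the edgeR adjusted p went up to 0.160, 0.167, 0.177, 0.160 and 0.173. Dnttip1, Gps2 and Snai2 were also below every WT library in libraries labelled Ezh2 ECKO, without passing. Their log2 fold changes there were -1.15, -1.21 and -1.18 (edgeR adjusted p = 0.0887, 0.101 and 0.0937).

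Besides Mbd3 and Hdac1 no listed gene passed in libraries labelled Ezh2 ECKO. The 3 others with the smallest p were Brms1 (log2 fold change -2.37, edgeR adjusted p = 0.0592) and Morf4l1 (-0.76, 0.0878), both Sin3 subunits, and Rbbp4 (-0.99, 0.071), a histone-binding protein of Sin3 and NuRD. Rbbp4 did pass with the length trend removed (log2 fold change -1.31, adjusted p = 0.0375 by edgeR), and Brms1 (adjusted p = 0.00217), Rbbp4 (0.0119) and Morf4l1 (0.0279) by DESeq2, which called 1280 genes there. In beta-catenin GOF the 3 with the smallest p besides Hdac1 and Mbd3 were Rbbp4, Hdac3 and Brms1l, with log2 fold changes of -0.61, -0.75 and -0.68 and edgeR adjusted p of 0.801, 0.801 and 0.821, none of which passed.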

How the data were processed

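The authors deposited 1 table of gene counts for all 12 libraries, made with SMART-Seq v4 PLUS and paired-end sequencing per the labels' protocols. Per the submitters' processing notes FastQC, cutadapt, STAR, featureCounts and DESeq2 were used with mm10, with no versions, roles or strand setting named. The table's title calls its values normalized, but they are whole numbers with totals of 24781070 to 36109975, so they were analysed as raw counts. Even numbers made up 79.5% to 84.0% of values between 10 and 50 and 59.4% to 67.1% of values between 300 and 1000, for a reason that was not tested.

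Genes with a mean of at least 10 counts were tested in edgeR 4.0.16 (quasi-likelihood, TMM scaling, 1 model over 12 libraries, Benjamini-Hochberg adjustment over 12577 genes per contrast, threshold 0.05). Alternatives used DESeq2 1.42.0, limma 3.58.1, other scaling, sample weights, length and GC trends, a replicate block and leaving out each library. The procedure was tested on simulated data. The labels name no batch. Gene positions and overlaps came from GENCODE M21, whose positions matched 99.1% of the table's rows. Same-numbered libraries did not deviate together in most pairs (r -0.14 to 0.27, 4 of 18 pairs over 0.1), so numbers were not treated as pairs. Those 4 pairs all joined Hdac2 ECKO to another mutant. The highest was Hdac2 ECKO 2 with the second library of the Ezh2 ECKO label. Differently numbered libraries reached 0.20 (WT 1 with Hdac2 ECKO 2).

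The members and lists were chosen with earlier results of these data known. Text names the 10 subunits, the targeted genes and Hdac1, and other listed genes past the threshold against WT (at most 6 per contrast by p, or the 3 with the smallest p where fewer than 3 passed). One gene that this rule names is not reported here.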

Additional observations from a re-analysis of the deposited data

How the results depend on the processing

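The number of subunits past the threshold is printed per comparison. For Hdac2 ECKO against WT it was 1, and became 0 with library size alone, 5 with sample quality weights, 0 with the length trend removed, 0 with the length and GC trends removed, and 0 to 2 with 1 library left out. For the libraries labelled Ezh2 ECKO against WT it was 1, and became 0 with library size alone, 3 with quality weights, 0 when only these 2 groups were fitted, and 0 to 2 with 1 library left out. Between mutants, where it was 0, it became 1 by DESeq2 when Hdac2 ECKO was set against those labelled Ezh2 ECKO. It became 2 with quality weights for beta-catenin GOF against each of the other mutants. With 1 library left out it was 0 to 1 when beta-catenin GOF was set against those labelled Ezh2 ECKO. The 1 was Mbd3, without the second library of that label, a fit that called 732 of all genes in place of 8. The number of genes called among all 12577 moved too: quality weights called 5374 in Hdac2 ECKO against WT, 3743 with the Ezh2 ECKO label against WT, and 3339 and 1466 for beta-catenin GOF against these mutants in turn, while library size alone called 1826 and 30 in the first and second of these. Removing the length trend called 604 in Hdac2 ECKO, removing length and GC 821, and fitting only 2 groups called 17 with the Ezh2 ECKO label, in place of 1157 and 129. The cause of these changes was not tested.

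Leaving out the second libraries of Hdac2 ECKO and of the Ezh2 ECKO label together gave 3 and 2 subunits against WT, and 1 and 2 for beta-catenin GOF against each in turn, where 3646, 2802, 2317 and 1562 of all genes were called. That pair was chosen after seeing that its Sin3b, Rcor1 and Mbd3 values lay nearer WT, so these higher counts support no call.

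Fold changes near 0 changed sign. In Hdac2 ECKO, Mta2 went from 0.02 to -0.032 by DESeq2, -0.032 with DESeq2's size factors, -0.13 with weights, -0.014 with 2 groups and -0.11 without the second libraries. Chd4 there went to -0.012 with length removed and -0.0030 with the replicate block and length removed. Gatad2a there went to 0.026 by limma, 0.25 with library size alone and 0.013 with the replicate block. With the Ezh2 ECKO label, Chd4 went to 0.0052 without the second libraries. In beta-catenin GOF, Sin3b went to -0.050, -0.075 and -0.098, and Mta1 to 0.092, 0.075 and 0.038, with length removed, with the replicate block and length removed, and with length and GC removed. Mta1 was also 0.037 with library size alone. With 1 library left out, ranges crossing 0 were -0.16 to 0.19 for Mta2 and -0.23 to 0.33 for Gatad2a in Hdac2 ECKO, -0.090 to 0.21 for Mta2 and -0.22 to 0.14 for Chd4 with the Ezh2 ECKO label, and -0.075 to 0.13 for Sin3b, -0.13 to 0.18 for Mta1, -0.27 to 0.24 for Gatad2a and -0.31 to 0.016 for Ctnnb1 in beta-catenin GOF.

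The replicate block gave 1, 1, 0, 0, 0 and 0 subunits past the threshold in the 6 comparisons, the counts of the fit without it. Among all genes the block called 1832 in Hdac2 ECKO and 536 with the Ezh2 ECKO label against WT, in place of 1157 and 129. With the block and the length trend removed together, Sin3b (adjusted p = 0.0345 by edgeR) passed in Hdac2 ECKO and Mbd3 (0.0876) did not. Library size alone moved the median of all genes in Hdac2 ECKO from 0.10 to 0.34, with 1469 genes called higher and 357 lower in place of 480 and 677. At 64 to 3601 counts per subunit and 3 libraries per group, counting error and the spread between libraries were not separated for each subunit.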
